A study of Mus musculus with 6 samples.

Results

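The colon of mice with dextran sodium sulphate (DSS) colitis was compared with the colon of control mice, gene by gene, on Affymetrix Mouse Genome 430 2.0 arrays. Of 18194 genes that the array covered under exactly 1 gene symbol, 11952 were measured, meaning that at least 1 of the 2 arrays lay above the median intensity of the 3 colon arrays. That median, 25.1, served as a floor, since intensities under it are near background, and every ratio was taken after lower values had been raised to it. The other 6242 genes lay at or under the floor in both arrays. A gene under the floor in the control array was measured through the colitis array only, so it could not be lower in colitis. The reverse held for a gene under the floor in the colitis array. Counts of gene groups on each side include such genes.

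All mice were male C57BL/6J (written C576B6/J in the labels), 7 weeks old and housed individually. The control group (CON) ate a basal diet and drank plain water. The colitis group (DSS) ate the same diet, drank plain water for 7 days and then 1.5% (w/v) DSS of 40 kDa for 10 days, per its treatment protocol. A further colitis group (DSSPAR) received 2% parsley in its basal diet and drank 1.5% DSS for 9 days, and its intensities are given beside the others for reference, with the same CON array as the control. Each array held RNA pooled from 7 mice, so the spread between mice was not measured, and with 1 array per group no value carries a replicate error or a p-value. The tissue was labelled as colon only, with no layer or segment named. In whole tissue, fewer cells of a type and less RNA per cell cannot be told apart.

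DSS is a sulphated polymer that damages the epithelial lining of the large bowel when mice drink it, which lets luminal bacteria reach the tissue below. The injury draws in neutrophils and monocytes, and chemokines, interleukins and interferons signal between these cells, the stroma and the epithelium. The surface colonocytes, which absorb salt and water, oxidise fatty acids and detoxify luminal compounds, are the cells most exposed to the polymer, and the crypts below replace them.

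The arrays were comparable in median brightness. Median probe set intensity was 27.3 in CON, 25.7 in DSS and 22.5 in DSSPAR, and 51.7%, 50.5% and 47.8% of the 45101 probe sets lay above the floor. Across probe sets, log2 intensities of CON and DSS correlated at 0.923, a description over features that share a platform. Between 2 probe sets of the same gene, the DSS to CON log2 ratios differed with a robust SD of 0.41 over 5287 genes, from 0.50 in the dimmest of 3 equal classes to 0.32 in the brightest. This spread between probe sets does not include the spread between mice or between arrays. The 3' to 5' ratio of the beta-actin control was 1.61 in CON and 1.30 in DSS, and that of the Gapdh control was 0.850 and 0.696. The 18S ribosomal RNA controls differed between arrays. Their middle probe set measured 3370 in CON, 1430 in DSS and 193 in DSSPAR, and their 5' probe set 6156, 4018 and 390. The cause was not tested. The tissue label was checked against marker genes. All 6 colonocyte markers lay above the floor in each colon array, with summed intensities of 19884 in CON, 17923 in DSS and 20394 in DSSPAR. All 5 goblet cell markers did as well, with sums of 29770, 29446 and 32233. The 5 exocrine pancreas markers on the array summed to 21.1 in CON and 31.2 in DSSPAR, none above the floor, but to 2120 in DSS, all 5 above it. These pancreatic genes are described last, and their part in other results was not tested.

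At least 2-fold higher in DSS were 619 of 11952 measured genes, or 5.18%, and at least 2-fold lower were 236, or 1.97%. These shares are the background against which the gene groups below are read. The median log2 ratio of all measured genes was 0.04, with 6462 genes above CON and 5490 below. For 176 of the called genes the dimmer array was at or under the floor, so that only a lower bound of the fold was measured: 128 of these were higher in DSS and 48 lower. At 3-fold or more, 210 genes (1.76%) were higher and 62 (0.519%) lower, and at 4-fold or more, 116 (0.971%) were higher and 35 (0.293%) lower. Just inside the 2-fold limit, between 2-fold and 2.2-fold, lay 162 higher and 67 lower genes, and just outside, between 1.8-fold and 2-fold, lay 205 and 138. More than 1 probe set was above the floor for 303 called genes, and in 93.1% of these every such probe set was on the same side of CON, against 57.1% of 5307 measured genes of that kind. Called genes were selected for a large ratio in these same data, so more agreement among them follows from the selection. The contrast is not a check on the calls.

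**Figure D1:**
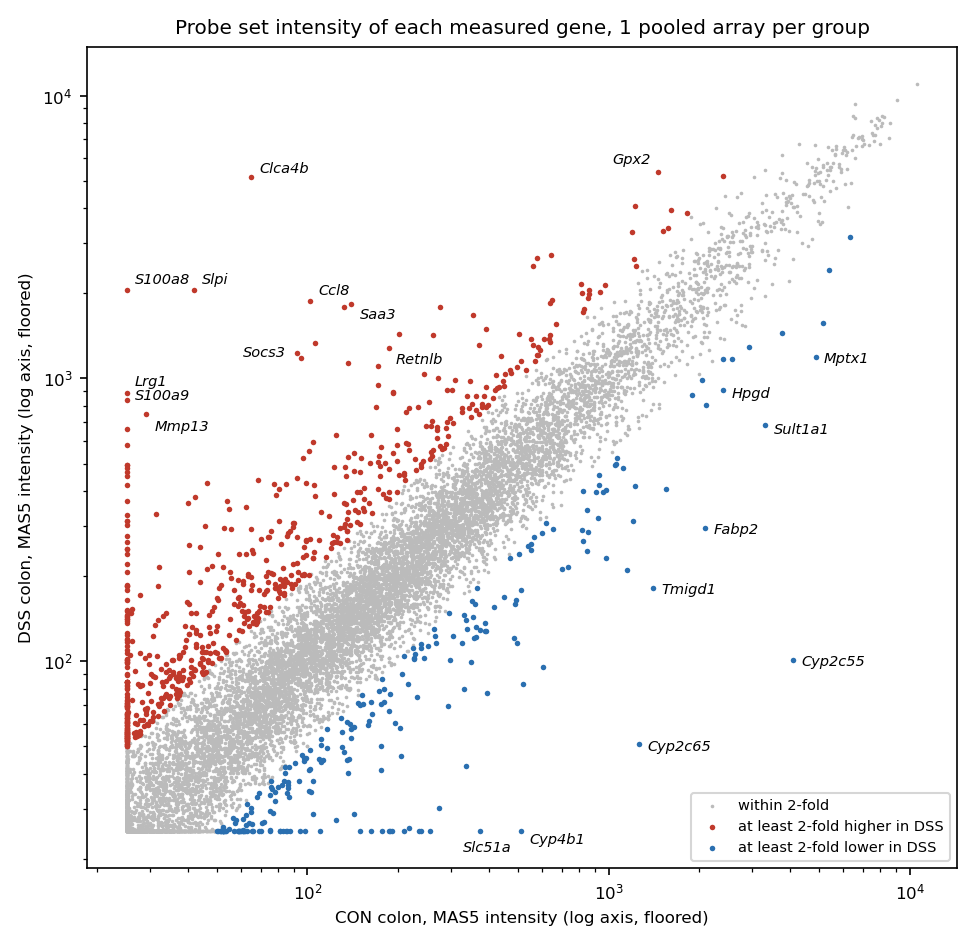
Each point is 1 of the 11952 measured genes, with its CON intensity on the horizontal and its DSS intensity on the vertical log axis, both raised to the floor of 25.1. The 619 genes at least 2-fold higher in DSS are red and the 236 at least 2-fold lower are blue; the column of points at the left edge and the row at the bottom edge are genes with the other array at or under the floor.

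The 15 highest ranked genes included both subunits of calprotectin, secreted defence proteins, matrix proteases and chemokines, and 4 of them, Reg2, Prss2, Ctrb1 and Cela2a, belonged to the exocrine pancreas list described last. S100a8, a subunit of the calcium-binding protein calprotectin, measured 18.5 in CON, 2057 in DSS and 1423 in DSSPAR, at least 82.0-fold higher in DSS. Clca4b, a member of the family first described as calcium-activated chloride channel regulators, measured 64.9, 5150 and 4037, a log2 ratio of 6.31. Slpi, an inhibitor of leukocyte proteases, measured 41.9, 2050 and 1603, a log2 ratio of 5.61. All 3 were high in both colitis arrays and low in CON. Lrg1, a secreted leucine-rich glycoprotein of the acute phase response, measured 1.31, 890 and 403, at least 35.5-fold higher. Mmp13, an interstitial collagenase, measured 29.2, 746 and 154, a log2 ratio of 4.67. The DSSPAR array lay between the other arrays for Mmp13, and also for S100a8, Clca4b, Slpi, Lrg1, Lcn2, Cxcl9, Mmp3 and Cxcl5.

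The 15 lowest ranked genes were mainly enzymes and carriers of the surface epithelium. Cyp2c55, a cytochrome P450 of the colon that oxidises fatty acids, measured 4094 in CON, 101 in DSS and 278 in DSSPAR, a log2 ratio of -5.34 and the lowest of all measured genes. Cyp2c65, a related P450, measured 1258, 50.8 and 54.5, a log2 ratio of -4.63. Cyp4b1 measured 512, 17.2 and 21.1, at least 20.4-fold lower in DSS. In these P450 genes both colitis arrays were far below CON. Prkg2, a membrane-bound protein kinase activated by cyclic GMP in the intestinal epithelium, measured 274, 30.2 and 21.4. Its 3 probe sets had log2 ratios from -3.46 to -1.96. The ranking itself admitted only genes with no probe sets above the floor on opposite sides of CON. Tmigd1, a membrane adhesion protein of the intestinal epithelium, measured 1407, 182 and 163, a log2 ratio of -2.95. Dpyd, the enzyme that starts the breakdown of uracil and thymine, measured 335, 42.7 and 50.6, a log2 ratio of -2.97.

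**Figure D2:**
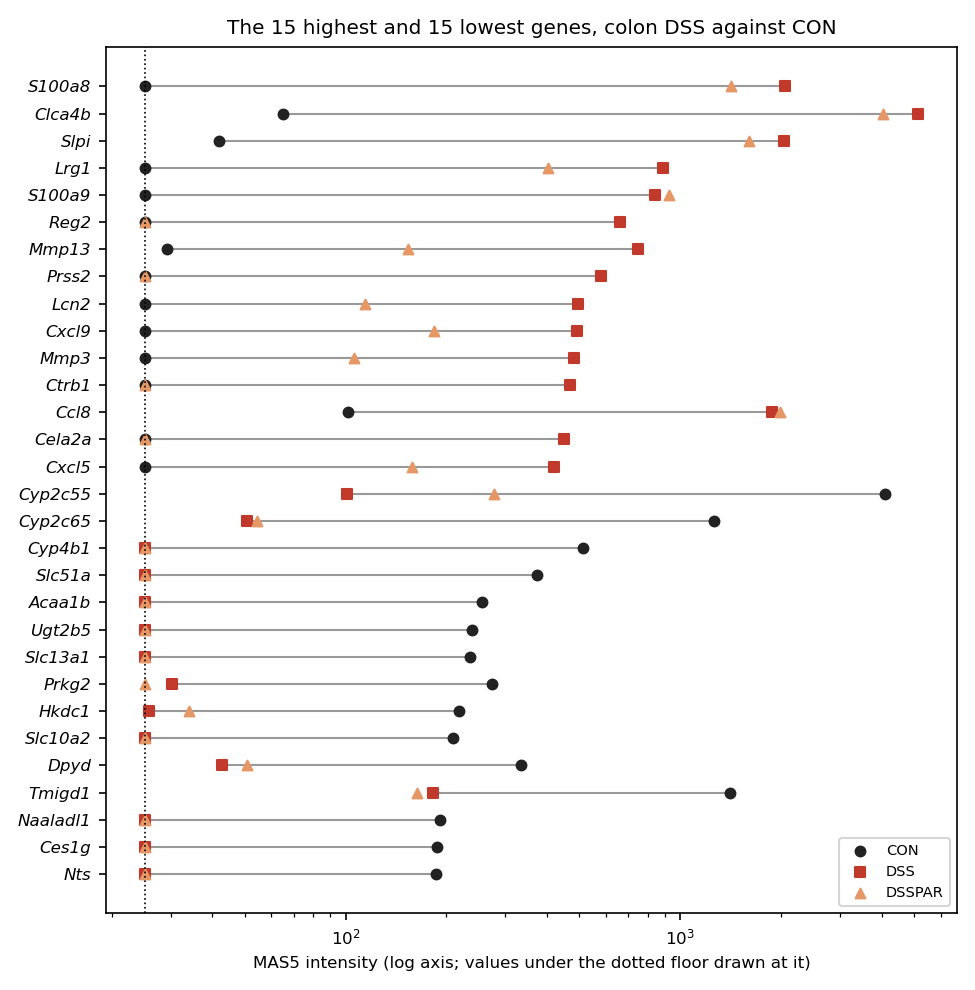
Intensities of the 15 highest (top) and 15 lowest (bottom) ranked genes in the CON (black circles), DSS (red squares) and DSSPAR (orange triangles) colon arrays on a log axis, with 1 pooled array per group and no error bars. Values under the dotted floor of 25.1 are drawn at it; S100a8 stands at the floor in CON and at 2057 in DSS, and Cyp2c55 at 4094 in CON and 101 in DSS.

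Genes of neutrophils were at least 2-fold higher in DSS for 7 of 12 measured members and lower for none, with a median log2 ratio of 1.48. All measured members except Mmp9 were under the floor in CON, entered through DSS only, and so could not be lower. The median was 2.63 over the 4 members above a floor at the 75th percentile of intensities, and 2.35 over all 19 on the array with no floor. The neutrophil markers summed to 66.0 in CON, 3008 in DSS and 2409 in DSSPAR, and S100a8 and S100a9 made up most of the sum. S100a9, the partner of S100a8 in calprotectin, measured 9.96, 839 and 923, at least 33.4-fold higher in DSS. Lcn2, a siderophore-binding protein that epithelium also makes, measured 7.62, 496 and 114, at least 19.8-fold higher. Ltf, the iron-binding lactoferrin, measured 18.7, 141 and 81.7, at least 5.60-fold higher. Other granule and receptor genes of neutrophils were dimmer: Ngp measured 33.2 and Mmp8 37.8 in DSS, close to the floor, and Cxcr2 and Csf3r lay at or under the floor in both arrays. The other 3 of the 7 higher members were surface receptors, namely Clec4e, Il1r2 and the formyl peptide receptor Fpr2, the last at 17.6, 89.8 and 39.1.

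Monocyte and macrophage genes had the largest share of elevated members among the cell type lists: 19 of 23 measured members were at least 2-fold higher, none was lower, and the median log2 ratio was 1.75. Lyz2, the lysozyme of macrophages and neutrophils, measured 642 in CON, 2735 in DSS and 2345 in DSSPAR, a log2 ratio of 2.09. Tyrobp, the signalling adaptor of many myeloid receptors, measured 124, 631 and 744, a log2 ratio of 2.34. Chil3, a chitinase-like protein secreted by activated macrophages, measured 0.439, 277 and 79.6, at least 11-fold higher. Receptors for the Fc part of IgG stood out among the members. Fcer1g, their shared signalling chain, measured 68.5, 439 and 259, a log2 ratio of 2.68. Fcgr3, an activating receptor, measured 54.9, 345 and 257, a log2 ratio of 2.65. Fcgr4, another activating receptor, measured 21.2, 179 and 80.0, at least 7.14-fold higher. The inhibitory Fcgr2b measured 104, 597 and 420, a log2 ratio of 2.53, so that activating and inhibitory receptors were elevated alike. Csf1r, the growth factor receptor that defines the lineage, measured 422, 1024 and 866, a log2 ratio of 1.28. Adgre1, which encodes the F4/80 antigen, measured 92.9, 178 and 182, a log2 ratio of 0.94 and short of 2-fold. Cd163 and Mrc1, scavenger and mannose receptors of resident macrophages, were higher as well, Cd163 at least 3.36-fold and Mrc1 with a log2 ratio of 1.72. In the Ms4a family of membrane proteins, grouped after values had been seen, 7 of 11 measured members were at least 2-fold higher, led by Ms4a6d at 40.5, 258 and 171.

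Lymphocyte genes gave smaller differences. Of 9 measured T cell and NK cell genes, 1 was at least 2-fold higher, namely Gzmb, a cytotoxic granule protease, at 20.2, 58.3 and 17.9. Cd3g, a chain of the T cell receptor complex, measured 29.0, 35.8 and 42.4, near the floor in each array. The T cell markers summed to 70.7 in CON and 60.5 in DSS. Of 14 B cell and plasma cell genes, 4 were higher, with a median of 0.37 that turned to -0.05 where probe sets shared between transcripts were left out. Ms4a1, the B cell antigen CD20, measured 83.3, 185 and 179, a log2 ratio of 1.15. Cr2, a complement receptor of B cells and follicular dendritic cells, measured 32.7, 74.4 and 40.2, a log2 ratio of 1.19. The antibody genes of plasma cells were bright and nearly level: Igha measured 5582, 5790 and 5814, and Jchain 2653, 2289 and 3255. Of 6 measured mast cell and eosinophil genes 5 lay above CON, and the median was 0.50. All 5 were under the floor in CON and were measured through DSS only, so they could not lie below CON. Above a floor at the 75th percentile 1 member was left. Mcpt2, a protease of mucosal mast cells, measured 14.9, 52.9 and 56.0, at least 2.11-fold higher and the member past 2-fold. The member below CON was Kit, a receptor of mast cells and of the pacemaker cells of the gut wall, at 226, 149 and 144, a log2 ratio of -0.60.

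Antigen presentation genes all lay above CON. All 11 measured MHC class II genes did, 3 of them at least 2-fold, with a median of 0.82: H2-Aa, an alpha chain, measured 1596 in CON, 2723 in DSS and 3052 in DSSPAR, and H2-DMa, which loads peptides, measured 47.2, 146 and 126. All 14 class I presentation genes did as well, 4 of them at least 2-fold, with a median of 0.69. Nlrc5, the transcriptional activator of class I genes, measured 25.9, 148 and 112, a log2 ratio of 2.51. Tap1, a peptide transporter, measured 65.6, 248 and 216, a log2 ratio of 1.92. Psmb8, a catalytic subunit of the immunoproteasome, measured 218, 785 and 601, a log2 ratio of 1.85. Tap1 and Psmb8 thus differed from CON by more than any measured class II gene, of which H2-DMa had the highest log2 ratio, 1.63. Among the non-classical MHC class Ib genes, grouped after values had been seen, 3 of 7 went the other way. H2-T3, whose product is displayed by intestinal epithelium, measured 81.0, 6.11 and 13.8, at least 3.23-fold lower in DSS. H2-Q2 measured 814, 291 and 468, a log2 ratio of -1.48.

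CXC chemokines, the secreted proteins that call in neutrophils and lymphocytes, had 9 of 12 measured members at least 2-fold higher, none lower, and a median log2 ratio of 2.07. The median was 1.20 over the 9 members measured with the floor at the 75th percentile of intensities, where the ratios of genes dim in CON are shorter. Ligands of the neutrophil receptor CXCR2 were elevated: Cxcl5 measured 12.5 in CON, 419 in DSS and 158 in DSSPAR, at least 16.7-fold higher. Cxcl1 measured 15.5, 240 and 95.4, at least 9.57-fold higher. Cxcl2 measured 4.93, 184 and 142, at least 7.33-fold higher. None of these ligands was above the floor in CON. Ligands of the interferon-linked receptor CXCR3 were elevated too. Cxcl9 measured 23.1, 493 and 184, at least 19.6-fold higher, although its second probe set gave a log2 ratio of 1.41 only. Cxcl10 measured 23.1, 221 and 104, at least 8.82-fold higher. Cxcl13, which draws B cells into lymphoid follicles, measured 106, 1331 and 553, a log2 ratio of 3.65. The 3 markers of lymphoid aggregates, of which Cxcl13 is 1 and Cr2 another, summed to 148 in CON, 1426 in DSS and 615 in DSSPAR.

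CC and other chemokines were mixed, with 7 of 16 measured members at least 2-fold higher, none lower, and a median of 0.51. Ligands for monocytes and eosinophils led them. Ccl8, a monocyte chemoattractant, measured 102 in CON, 1881 in DSS and 1989 in DSSPAR, a log2 ratio of 4.21. Ccl2, the principal ligand of the monocyte receptor CCR2, measured 9.80, 141 and 43.5, at least 5.64-fold higher, and Ccr2 itself measured 50.2, 168 and 131, a log2 ratio of 1.75. Ccl11, the eosinophil attractant eotaxin, measured 39.9, 162 and 88.8, a log2 ratio of 2.02. Ccl20, made by epithelium to attract CCR6 cells, measured 12.8, 136 and 189, at least 5.44-fold higher. By contrast Ccl5, a ligand typical of T cells, measured 111, 132 and 104, a log2 ratio of 0.26.

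Among interleukins and related cytokines, 5 of 16 measured genes were at least 2-fold higher and 1 was lower, with a median of 0.77. Il1b measured 54.2 in CON, 369 in DSS and 293 in DSSPAR, a log2 ratio of 2.77. Il6 measured 0.312, 143 and 19.0, at least 5.71-fold higher in DSS and under the floor in both other arrays. Il33, an alarmin of stroma and endothelium, measured 55.7, 197 and 86.4, a log2 ratio of 1.82. Tnf, Il17a and Ifng, which define the T cell and macrophage responses of colitis, stayed dim: Tnf measured 8.85 and 47.4, Il17a 13.6 and 27.8, and Ifng 5.34 and 27.5 in CON and DSS, so that none reached 2-fold above the floor. Il18, an epithelial cytokine, was bright in every array at 1466, 2581 and 3202, a log2 ratio of 0.82. The gene that was lower, Il15, a growth factor for intraepithelial lymphocytes, measured 227, 106 and 132, a log2 ratio of -1.10. Of 21 receptors, 6 were higher and none lower. Osmr, the oncostatin M receptor of stromal cells, measured 75.5, 289 and 169, a log2 ratio of 1.94. Tnfrsf1b, a TNF receptor, measured 62.4, 240 and 165, a log2 ratio of 1.94. Il22ra2, the soluble decoy receptor of interleukin-22, measured 43.0, 14.7 and 46.9, a log2 ratio of -0.78.

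**Figure D3:**
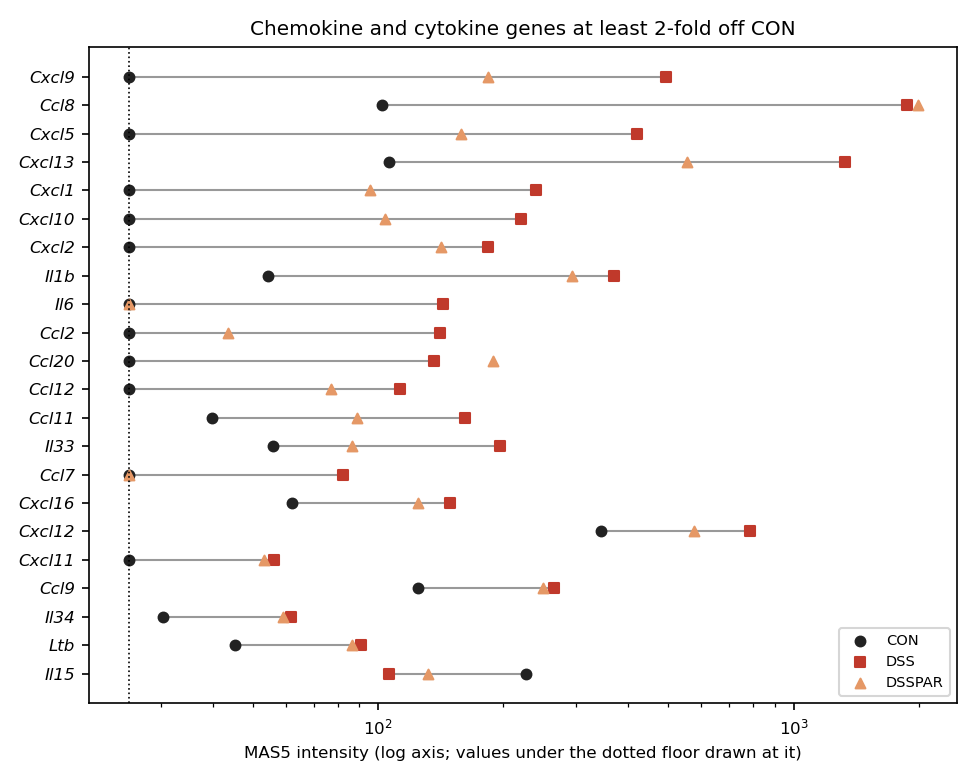
Intensities of the 22 chemokine and cytokine genes at least 2-fold off CON, in the CON (black circles), DSS (red squares) and DSSPAR (orange triangles) colon arrays on a log axis, with 1 pooled array per group. Rows run by log2 ratio; in 21 of them the DSS square lies to the right of CON, as for Cxcl9 at 493, and Il15 alone lies to the left, at 106 against 227.

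Intracellular signalling genes differed less than the ligands. Of 15 NF-kB pathway genes 3 were at least 2-fold higher: the inhibitor Nfkbie measured 47.0 in CON, 132 in DSS and 98.3 in DSSPAR, Nfkbiz 611, 1380 and 1510, and the subunit Rel 16.1, 60.8 and 27.7. Nfkbia, the inhibitor that NF-kB itself induces, measured 1659, 2788 and 2841, a log2 ratio of 0.75. Of 15 pattern receptors 4 were higher, among them Lbp, which hands bacterial lipopolysaccharide to CD14, at 31.3, 332 and 287, and Cd14 itself at 308, 989 and 1288. Tlr4 measured 105, 163 and 140, a log2 ratio of 0.63 with probe sets on both sides of CON, and Tlr2 measured 163, 121 and 138, a log2 ratio of -0.43. The SOCS and STAT list had a median of -0.00, which became 0.08 with the arrays centred on their medians. Socs3, the feedback inhibitor induced through STAT3, was far from the rest at 92.1, 1230 and 1025, a log2 ratio of 3.74, with its 3 probe sets between 2.85 and 3.74. Cish, a feedback inhibitor induced through STAT5, measured 152, 75.8 and 103, a log2 ratio of -1.01, and Socs2, another target of that factor, measured 467, 240 and 232, a log2 ratio of -0.96. Stat3 measured 510, 604 and 481, with a log2 ratio of 0.24 and probe sets on both sides.

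The DNA upstream of several of these genes is shown because chemokine and interferon-stimulated genes share short, well known binding motifs of their regulators. Promoter sequences are those of RefSeq for build GRCm38.p6, and the 250 bases before each gene's start were searched on both strands for 3 motifs: GGGNNNTTCC for NF-kB, GAAANNGAAA for the interferon-stimulated response element, and TTCNNNGAA for STAT factors, where N is any base. Matches of different motifs could overlap and were counted separately. Each stretch runs 5′ to 3′ on the gene's own strand, with the matches of the named motif, on either strand, in capitals. The genes were chosen because they were at least 2-fold higher in DSS and held a match. For NF-kB they were Cxcl1 at chr5:90891136-90891204, Cxcl2 at chr5:90903782-90903850, Ccl20 at chr1:83116666-83116715 and Il6 at chr5:30013050-30013099, each on the plus strand. For STAT it was Socs3 at chr11:117969492-117969540 on the minus strand.
Cxcl1: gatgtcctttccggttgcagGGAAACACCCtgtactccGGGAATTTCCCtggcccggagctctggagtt
Cxcl2: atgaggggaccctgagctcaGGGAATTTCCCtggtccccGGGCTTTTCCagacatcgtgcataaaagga
Ccl20: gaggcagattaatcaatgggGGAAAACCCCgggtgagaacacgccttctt
Il6: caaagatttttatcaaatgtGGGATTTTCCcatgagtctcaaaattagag
Socs3: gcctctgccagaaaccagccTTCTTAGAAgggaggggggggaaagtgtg

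Cxcl1 and Cxcl2, neighbours on chromosome 5, each held 3 NF-kB matches, of which 2 overlap on opposite strands. The NF-kB motif was present in 4.65% of all 32851 promoters, in 5.13% of 12340 promoters of measured genes, in 49 of 563 promoters of genes at least 2-fold higher in DSS, or 8.70%, and in 7 of 216 promoters of genes at least 2-fold lower, or 3.24%. The STAT motif was present in 7.02% of all promoters, in 9.06% of those of higher genes and in 3.70% of those of lower genes. A match is a run of letters and not a binding site, and 644 of the 855 called genes had a promoter in the table.

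Interferon-stimulated genes were higher as a group. Of 10 measured interferon-induced GTPases, which attack the vacuoles of intracellular microbes, 9 were past 2-fold on the higher side and none on the lower, with a median log2 ratio of 1.94. Iigp1 measured 136 in CON, 1136 in DSS and 635 in DSSPAR, a log2 ratio of 3.06. Gbp2 measured 171, 1103 and 667, a log2 ratio of 2.69. Igtp measured 101, 553 and 364, a log2 ratio of 2.46, and Irgm2 measured 133, 485 and 326, a log2 ratio of 1.87. The guanylate-binding proteins and the immunity-related GTPases were thus elevated side by side, and in each named member DSSPAR lay between CON and DSS. These families have many near-identical members, so signal may be shared between them. Of 25 other genes that interferon stimulates, 14 were higher and 0 lower, with a median of 1.16. Ifitm1, a membrane protein that blocks viral entry, measured 201, 1436 and 824, a log2 ratio of 2.84. Ifit2, which binds viral RNA, measured 62.3, 350 and 253, a log2 ratio of 2.49. Zbp1, a sensor of unusual nucleic acids, measured 55.7, 293 and 247, a log2 ratio of 2.40. Ido1, which breaks down tryptophan, measured 106, 383 and 211, a log2 ratio of 1.86. Irf1, a transcription factor of this response, measured 620, 1019 and 1132, a log2 ratio of 0.72. Ubd, a ubiquitin-like modifier induced by interferon gamma and TNF, measured 42.2, 380 and 299, a log2 ratio of 3.17; it belonged to no list and was singled out after its values were seen.

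The interferon-stimulated response element is shown in 4 of these promoters, from the same table and with the matches in capitals. Gbp2 lies at chr3:142620584-142620633, Igtp at chr11:58199502-58199551 and Irgm2 at chr11:58214893-58214942, on the plus strand, and Cxcl10 at chr5:92348964-92349122, on the minus strand. The Cxcl10 stretch also has the matches of the NF-kB motif in capitals.
Gbp2: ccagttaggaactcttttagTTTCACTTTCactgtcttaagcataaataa
Igtp: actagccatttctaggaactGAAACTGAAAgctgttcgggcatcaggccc
Irgm2: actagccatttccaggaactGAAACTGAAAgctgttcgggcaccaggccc
Cxcl10: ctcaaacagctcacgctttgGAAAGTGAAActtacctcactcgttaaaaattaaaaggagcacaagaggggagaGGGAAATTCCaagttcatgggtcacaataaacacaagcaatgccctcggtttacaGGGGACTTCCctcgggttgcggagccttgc

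The stretches of Igtp and Irgm2 were alike at 48 of 50 bases. The motif was present in 2.98% of all promoters, in 2.61% of those of measured genes, in 43 of 563 promoters of higher genes, or 7.64%, and in 3 of 216 of lower genes, or 1.39%. Neighbouring genes with duplicated promoters are counted separately in these shares.

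Complement genes had 8 of 16 measured members at least 2-fold higher, none lower, and a median of 1.14. C1qa, a chain of the recognition molecule made by macrophages, measured 169 in CON, 789 in DSS and 652 in DSSPAR, a log2 ratio of 2.22. The proteases of the same complex were higher as well, with C1ra at 85.7, 277 and 158. Serping1, the inhibitor of those proteases, measured 440, 1202 and 726, a log2 ratio of 1.45.

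Secreted antimicrobial and mucosal defence proteins had 12 of 18 measured members at least 2-fold higher, 1 lower, and a median of 1.50. The largest differences were in Slpi and Lcn2, described above, and in Saa3 and Pla2g2a. Saa3, a serum amyloid A protein made locally in inflamed tissue, measured 140 in CON, 1825 in DSS and 616 in DSSPAR, a log2 ratio of 3.70. Pla2g2a, a gene of the secreted phospholipases, measured 10.2, 302 and 208, at least 12-fold higher. This is RNA, and whether active enzyme was made was not measured. Retnlb, a goblet cell protein that kills gram-positive bacteria, measured 187, 1285 and 1723, a log2 ratio of 2.78. Reg3g, a lectin of the same target range, measured 151, 521 and 286, a log2 ratio of 1.79. Among members already bright in CON, Lyz1, a lysozyme, measured 1222, 4082 and 4072, a log2 ratio of 1.74, while others were within 2-fold. Saa1 measured 6594, 9322 and 8952, a log2 ratio of 0.50, and Reg3b measured 2843, 3207 and 2664, a log2 ratio of 0.17. Pigr, the carrier of secretory antibody, measured 6615, 6614 and 7428, and Lypd8, which keeps flagellated bacteria off the surface, measured 9092, 9681 and 9276. Ang4, an antimicrobial ribonuclease of goblet and Paneth cells, was the lower member at 733, 215 and 648, a log2 ratio of -1.77, and in DSSPAR it stood near CON. The members did not share a direction: 2 bright secretory products of goblet cells, Retnlb and Ang4, went opposite ways in DSS.

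Slpi belongs to the whey acidic protein family of small protease inhibitors, grouped after values had been seen, in which 5 of 7 measured members were at least 2-fold higher and the median was 2.33. Wfdc18 measured 132 in CON, 1785 in DSS and 1314 in DSSPAR, a log2 ratio of 3.76. Wfdc17, which activated macrophages express, measured 94.9, 1179 and 1567, a log2 ratio of 3.64. Wfdc12 measured 18.9, 126 and 57.7, at least 5.02-fold higher. Wfdc2, an epithelial member, had a log2 ratio of -0.29. Raising the floor to the 75th percentile left 5 members and a family median of 3.50, and the median was 0.78 without the floor, where all 12 members on the array entered.

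Genes for reactive oxygen species and their removal had 7 of 20 measured members higher and 1 lower, with a median of 0.67. The phagocyte oxidase was elevated in its catalytic chain Cybb, at 74.4 in CON, 275 in DSS and 205 in DSSPAR, and in its partner Cyba, at 427, 921 and 900. For Cybb the log2 ratio of 1.89 was 0.99 as the mean over its probe sets. Gpx2, the glutathione peroxidase of the gut epithelium, was among the brightest genes past 2-fold, at 1456, 5344 and 4801, a log2 ratio of 1.88. Cat, the peroxisomal catalase, went the other way at 930, 421 and 527, a log2 ratio of -1.14, which was -0.56 on its probe set that is not shared. Gpx1 measured 2521, 2711 and 3067 and Sod1 2917, 2531 and 3171, both within 2-fold. The metallothionein Mt2, a metal-binding antioxidant, measured 817, 2008 and 2043, a log2 ratio of 1.30.

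In the prostaglandin list, 2 of 16 measured genes were higher and 1 was lower, with a median of 0.16. The inducible cyclooxygenase Ptgs2, which starts prostaglandin synthesis, measured 45.6 in CON, 301 in DSS and 119 in DSSPAR, a log2 ratio of 2.72. Hpgd, which inactivates prostaglandins, measured 2400, 912 and 1246, a log2 ratio of -1.40, with probe sets at -1.77 and -1.40. These 2 genes thus differed from CON in opposite directions. Other synthases were within 2-fold on both sides of CON. Ptges2, Ptgis and Ptgds had log2 ratios of -0.52, -0.29 and -0.31, and Hpgds and Tbxas1 had 0.20 and 0.47. Ptges, the inducible terminal synthase of prostaglandin E2, measured 33.3, 49.8 and 22.5, a log2 ratio of 0.58. Alox5ap, needed for leukotriene synthesis, measured 72.9, 228 and 175, a log2 ratio of 1.64.

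Several matrix metalloproteinases were high in DSS and lower in both other arrays. Of 15 measured metalloproteinases and inhibitors 5 were higher and 1 was lower, with a median of 0.61, or 1.04 with no floor. Mmp3, a stromelysin of fibroblasts, measured 17.6 in CON, 482 in DSS and 106 in DSSPAR, at least 19.2-fold higher. Mmp10, a stromelysin of epithelium, measured 11.3, 312 and 86.0, at least 12.4-fold higher. Mmp9, the gelatinase of neutrophils, measured 31.0, 61.5 and 26.0, a log2 ratio of 0.99. Timp1, the inducible inhibitor, measured 21.7, 139 and 68.8, at least 5.53-fold higher. Timp4 was the lower member, at 104, 37.6 and 73.0, a log2 ratio of -1.46. Among plasminogen, coagulation and serpin genes 4 of 14 were higher, and Serpina3n, an acute phase protease inhibitor, led them at 9.70, 314 and 114, at least 12.5-fold higher.

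Collagens had 14 of 16 measured members above CON, 7 of them at least 2-fold, and a median of 0.83. The fibroblast markers summed to 4025 in CON, 7385 in DSS and 5651 in DSSPAR. Col1a2, a chain of the main fibrillar collagen, measured 852, 1921 and 1269, a log2 ratio of 1.17, while its partner chain Col1a1 measured 94.4, 123 and 102, a log2 ratio of 0.38. Col18a1, a basement membrane collagen, measured 70.2, 271 and 141, a log2 ratio of 1.95. Col4a1, which forms the basement membrane network, measured 325, 761 and 468, a log2 ratio of 1.23. Among matricellular and crosslinking genes 5 of 17 were higher and 1 was lower. Lox, which crosslinks collagen, measured 25, 98.5 and 42.3, at least 3.93-fold higher. Sparc, a collagen-binding protein, measured 560, 1314 and 853, a log2 ratio of 1.23. The lower member Ccn2, a growth factor-like matrix protein, measured 239, 111 and 135, a log2 ratio of -1.10. Mgp, an inhibitor of matrix calcification, measured 276, 1789 and 984, a log2 ratio of 2.69, and like Ubd above was singled out after its values were seen.

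Endothelial and adhesion genes had 9 of 17 measured members at least 2-fold higher, none lower, and a median of 1.09. The activation molecules that let leukocytes attach differed most. Vcam1 measured 78.7 in CON, 386 in DSS and 244 in DSSPAR, a log2 ratio of 2.29. Icam1 measured 39.1, 133 and 85.3, a log2 ratio of 1.76. Selp, or P-selectin, measured 20.5, 84.7 and 30.7, at least 3.38-fold higher. Madcam1, the addressin of gut venules, measured 14.8, 72.4 and 46.2, at least 2.89-fold higher. The median was 0.60 over the 5 members that stayed with the floor at the 75th percentile of intensities. Genes of the vessel wall itself did not share a level. Tek, a receptor kinase of endothelium, measured 29.2, 66.7 and 48.3, a log2 ratio of 1.19, and Vwf, the clotting factor stored there, measured 33.8, 76.5 and 42.9, a log2 ratio of 1.18. Plvap and Eng, proteins of the endothelial membrane, had log2 ratios of 1.13 and 1.09. Within 2-fold lay the 3 genes used as endothelial markers: Pecam1 measured 30.3, 37.2 and 27.3, Cdh5 42.3, 51.6 and 45.3, and Kdr 50.5, 48.7 and 49.1, with sums of 123 in CON and 137 in DSS. Of 15 smooth muscle genes 14 lay below CON, 1 of them by at least 2-fold, with a median of -0.25. That gene was Pln, the calcium pump regulator phospholamban, at 159, 59.5 and 69.5. Acta2 measured 5579, 4991 and 5419, and Myh11 1906, 1399 and 1219. Enteric neuron and glia genes had a median of 0.02, with none of 12 past 2-fold.

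Genes of wound epithelium and the EGF family had 5 of 15 members higher and none lower, with a median of 0.46. Ereg, a ligand of the EGF receptor, measured 46.5 in CON, 425 in DSS and 131 in DSSPAR, a log2 ratio of 3.19. Other ligands differed little from CON, with log2 ratios of 0.51 for Hbegf, 0.17 for Tgfa and 0.27 for Btc. Hgf, a stromal growth factor for epithelium, measured 17.6, 58.0 and 32.5, at least 2.31-fold higher. Anxa1, a phospholipid-binding protein of healing epithelium, measured 1575, 3410 and 3617, a log2 ratio of 1.11. Of 12 squamous epithelium genes 6 were higher and 1 lower, led by Krt36 at 9.80, 119 and 61.7 and Sprr1a at 29.7, 105 and 95.1. The basal keratin Krt14 was the lower member at 137, 45.0 and 34.8. The 4 squamous markers, Krt5, Krt14, Krt13 and Sprr3, summed to 181, 162 and 122 in CON, DSS and DSSPAR.

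Stromal regulators of growth factor signals were also among the higher genes, in families grouped after values had been seen. Of 6 measured insulin-like growth factor binding proteins, 3 were at least 2-fold higher and the other 3 lay below CON. Their median of 0.57 turned to -0.08 where shared probe sets were left out. Among those below CON, Igfbp3 measured 251 in CON, 126 in DSS and 114 in DSSPAR, a log2 ratio of -0.99. Igfbp5, a binding protein of insulin-like growth factors, measured 262 in CON, 1418 in DSS and 456 in DSSPAR, a log2 ratio of 2.44, although its other probe set gave 0.22. Igfbp4 measured 272, 1003 and 651, a log2 ratio of 1.88, with 5 probe sets between 1.34 and 2.27. Pappa, the protease that cleaves these binding proteins, measured 26.2, 153 and 31.4, a log2 ratio of 2.55, with its other probe set above the floor at 0.94, and was likewise chosen after its values were seen. Grem1, a BMP antagonist made by cells below the crypts, measured 192, 898 and 246, a log2 ratio of 2.23. Chrdl2, another BMP antagonist, measured 17.2, 165 and 58.8, at least 6.57-fold higher. All 9 measured BMP antagonists lay at or above CON, 3 of them by at least 2-fold. Of these, Bmper, Chrd, Chrdl2 and Fstl3 were under the floor in CON and measured through DSS only, so they could not lie below CON. In Igfbp5, Pappa and Grem1 the DSSPAR array stood far closer to CON than to DSS.

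Cell cycle and DNA replication genes had 14 of 29 measured members at least 2-fold higher, none lower, and a median of 0.94. Birc5, a survival protein of dividing cells, measured 96.9 in CON, 522 in DSS and 403 in DSSPAR, a log2 ratio of 2.43. Cdk1, the kinase that starts mitosis, measured 143, 472 and 394, a log2 ratio of 1.72. Mki67, the proliferation antigen, measured 380, 813 and 660, a log2 ratio of 1.10. The mitotic kinases Plk1 and Aurka had log2 ratios of 1.63 and 1.51, and the 6 replication helicase subunits, Mcm2 to Mcm7, ran from 0.35 for Mcm2 to 0.94 for Mcm5, none past 2-fold. The crypt stem cell and Wnt list went the other way, with 18 of 21 below CON and a median of -0.33. The 2 at least 2-fold lower were Lgr5 and Cdx2. That list also held factors of intestinal identity and differentiation, such as Cdx2 and Hnf4a. Lgr5, the receptor that marks crypt base stem cells, measured 101, 34.9 and 29.1, a log2 ratio of -1.53. Cdx2, the transcription factor of intestinal identity, measured 655, 294 and 206, a log2 ratio of -1.16, with both probe sets lower. Sox9 measured 180, 96.0 and 79.4, a log2 ratio of -0.91, and Axin2, a direct Wnt target, measured 108, 63.8 and 55.7, a log2 ratio of -0.75. Hnf4a, a differentiation factor, measured 2513, 2197 and 2534, a log2 ratio of -0.19. Most cell division genes and most genes of the crypt list therefore did not share a direction. Tight and adherens junction genes had none of 22 past 2-fold, and a median of -0.05 that was 0.04 with the arrays centred on their medians. Cdh1, or E-cadherin, measured 5204, 4239 and 4662, and Epcam 5827, 5720 and 6157.

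Like the families grouped after values had been seen, the 52 lists were chosen with earlier results of these data known. Among the 52 lists, cytochrome P450 genes had the lowest median, -0.63, with 7 of 21 measured members at least 2-fold lower and 1 higher. Besides Cyp2c55, Cyp2c65 and Cyp4b1, the lower members included Cyp2d26, at 607 in CON, 95.7 in DSS and 183 in DSSPAR, a log2 ratio of -2.67. Cyp2s1 measured 449, 169 and 187, a log2 ratio of -1.41. The mitochondrial Cyp11a1, which makes pregnenolone from cholesterol, measured 149, 16.1 and 40.3, at least 5.94-fold lower. The higher member was Cyp7b1, an oxysterol hydroxylase, at 20.3, 84.7 and 50.2, at least 3.37-fold higher. Members of the Cyp2c and Cyp2d subfamilies are close in sequence, and signal may be shared between them. Conjugating enzymes, in a list that also held carboxylesterases, had 9 of 31 members lower and 1 higher, with a median of -0.21. Sult1a1, a phenol sulfotransferase, measured 3313, 682 and 1448, a log2 ratio of -2.28. Ugt2b5, a glucuronosyltransferase, measured 238, 1.57 and 5.09, at least 9.48-fold lower. The carboxylesterases Ces1d, Ces1f and Ces1g, which are not conjugating enzymes, were each among the 9 lower members. Ces1d measured 497, 116 and 97.6, a log2 ratio of -2.11. Glutathione transferases were mainly near CON, and Gsta3 was the higher member of the list at 64.8, 178 and 245, a log2 ratio of 1.45. Abcb1a, the drug efflux pump P-glycoprotein, measured 2100, 805 and 1259, a log2 ratio of -1.38, and was the only 1 of 14 ABC transporters past 2-fold.

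Aldehyde and steroid metabolism genes, grouped after values had been seen, held members on both sides. Of 16 aldehyde dehydrogenases 4 were lower and 1 was higher. Aldh1a1, which makes retinoic acid, measured 977 in CON, 232 in DSS and 280 in DSSPAR, a log2 ratio of -2.07, whereas Aldh1a3, which catalyses the same step, measured 47.4, 126 and 74.9, a log2 ratio of 1.41. Of 13 steroid dehydrogenases and Cyp11a1, 4 were lower and 1 was higher. Hsd3b3, which acts on steroids after Cyp11a1, measured 489, 160 and 216, a log2 ratio of -1.62. Hsd11b1, which regenerates active glucocorticoid, was the higher member at 57.2, 160 and 123, a log2 ratio of 1.49.

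Bile acid and lipid carriers had 3 of 12 measured members at least 2-fold lower, none higher, and a median of -0.27. Slc51a, a subunit of the basolateral bile acid exporter, measured 373 in CON, 20.6 in DSS and 7.94 in DSSPAR, at least 14.9-fold lower. Its partner subunit Slc51b had a log2 ratio of 0.23. Slc10a2, the apical bile acid importer, measured 210, 14.9 and 1.15, at least 8.38-fold lower. Fabp2, the intestinal fatty acid-binding protein, measured 2092, 297 and 583, a log2 ratio of -2.82. Slc13a1, a sodium-coupled sulphate carrier, measured 235, 14.4 and 8.19, at least 9.35-fold lower, and was the lowest of 25 nutrient and organic solute carriers. The brush border peptidases and phosphatase, grouped after values had been seen, had 7 of 10 measured members at least 2-fold lower. Their median was -1.51, which was -0.88 with the floor at the 75th percentile. That group also held the adhesion protein Tmigd1, which is neither a peptidase nor a phosphatase. It was among the 7 lower members and had the lowest log2 ratio of the group, -2.95. Mep1a, a subunit of the metalloprotease meprin, measured 1208, 313 and 420, a log2 ratio of -1.95. Naaladl1, an aminopeptidase, measured 191, 2.43 and 1.55, at least 7.63-fold lower. Alpi, the intestinal alkaline phosphatase, measured 110, 19.9 and 24.8, at least 4.40-fold lower. The 3 small intestine markers on the array, Lct, Alpi and Apoa4, summed to 116 in CON, almost all of it Alpi, 30.4 in DSS and 36.1 in DSSPAR, and the part of a difference in segment in these results was not tested.

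Fatty acid oxidation and ketogenesis genes had 20 of 25 members below CON, 2 of them at least 2-fold, and a median of -0.31. Acaa1b, a peroxisomal thiolase, measured 256 in CON, 15.7 in DSS and 21.0 in DSSPAR, at least 10.2-fold lower. Ppara, the nuclear receptor that induces these genes, measured 135, 44.7 and 52.3, a log2 ratio of -1.59, with all 3 probe sets lower. Most mitochondrial enzymes of the pathway were within 2-fold, from Acaa2 at 647, 359 and 502 to Acadl, which was higher at 1292, 2400 and 2113. Oxidative phosphorylation genes were close to CON throughout, with none of 32 past 2-fold and a median of 0.06 that was -0.01 after quantile normalization. Glycolysis and hypoxia genes had 19 of 23 members above CON, 4 of them at least 2-fold, and a median of 0.40. Hk2, the inducible hexokinase, measured 638, 1854 and 1645, a log2 ratio of 1.54. Hkdc1, a hexokinase of the intestinal epithelium, measured 218, 25.8 and 34.0, a log2 ratio of -3.08 and the opposite direction. Pfkfb3, which raises glycolytic flux, measured 24.2, 80.6 and 60.8, at least 3.21-fold higher.

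Sodium, chloride and bicarbonate transport genes had 13 of 18 members below CON, 2 of them at least 2-fold, 3 higher by 2-fold and a median of -0.43. Slc26a3, the chloride-bicarbonate exchanger of surface colonocytes, measured 6106 in CON, 4860 in DSS and 5955 in DSSPAR, a log2 ratio of -0.33. Slc4a4, the basolateral sodium-bicarbonate cotransporter, measured 492, 164 and 169, a log2 ratio of -1.58, with its 4 probe sets above the floor between -2.29 and -1.58. Cftr, the chloride channel of secretion, measured 553, 260 and 368, a log2 ratio of -1.09. The regulators of the Clca family were on the other side: besides Clca4b, Clca4a measured 561, 2496 and 1537, a log2 ratio of 2.15, and Clca3a1 measured 75.8, 205 and 199, a log2 ratio of 1.43. Clca1, the family member of goblet cell mucus, was level at 4986, 4967 and 5774. Carbonic anhydrases and aquaporins had 3 of 14 members higher and 3 lower. Car1, the main cytosolic carbonic anhydrase of colonocytes, measured 6333, 3149 and 3184, a log2 ratio of -1.01. Car4, the membrane-bound form, measured 3758, 5311 and 5250, a log2 ratio of 0.50. Aqp4, a basolateral water channel, measured 1195, 3290 and 3650, a log2 ratio of 1.46, with all 3 probe sets higher. Aqp8, an apical water channel, measured 1346, 2411 and 3704, a log2 ratio of 0.84. Colonocyte markers therefore did not share a direction, with Car1 and Cdx2 lower and Aqp8 and Car4 above CON. Potassium channel genes had none of 9 past 2-fold.

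Goblet cell and mucus genes had 3 of 24 members higher, 2 lower and a median of 0.01, and the bright structural components were near CON. Muc2, the gel-forming mucin, measured 7984 in CON, 6761 in DSS and 6874 in DSSPAR, a log2 ratio of -0.24. Zg16, a lectin of the mucus layer, measured 8247, 8413 and 9077, Tff3, a trefoil peptide, 5967, 6266 and 6959, and Fcgbp, a mucus crosslinking protein, 2587, 3039 and 3549. The 2 lower members were enzymes that build mucin glycans. Gcnt3, a branching enzyme, measured 1228, 418 and 529, a log2 ratio of -1.56, with all 3 probe sets lower. B3gnt6, which makes the core 3 structure, measured 98.5, 22.1 and 18.8, at least 3.92-fold lower. In the wider family of glycan chain transferases, grouped after values had been seen, 4 of 36 measured members were lower and none higher, with a median of -0.04 that was 0.05 with the arrays centred. Spink4, a goblet cell peptide, measured 2392, 5187 and 7452, a log2 ratio of 1.12. The membrane mucin Muc1 measured 27.9, 107 and 117, a log2 ratio of 1.94, while the abundant membrane mucin Muc3 measured 7524, 7372 and 7295. Mptx1, a pentraxin of the gut mucosa that was singled out after its values were seen, measured 4871, 1194 and 2418, a log2 ratio of -2.03.

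Peptides of enteroendocrine cells differed from CON in both directions, while the granule proteins common to these cells were within 2-fold. The list had 3 of 15 members higher, 1 lower and a median of -0.04, which was 0.04 with the arrays centred and 0.36 over the 8 members measured with the floor at the 75th percentile. Insl5, a peptide of distal colonic L cells, measured 649 in CON, 1894 in DSS and 2863 in DSSPAR, a log2 ratio of 1.55. Pyy, another L cell hormone, measured 810, 2154 and 2141, a log2 ratio of 1.41. Tac1, the precursor of substance P in nerves and enterochromaffin cells, measured 355, 1679 and 1349, a log2 ratio of 2.24. Chga and Chgb, granule proteins of all enteroendocrine cells, measured 199, 158 and 143 and 892, 791 and 649. Nts, the neurotensin precursor, measured 186, 19.1 and 20.2, at least 7.41-fold lower and opposite to the L cell hormones.

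Hox genes, which encode position along the body axis and stay active in adult gut in a regional pattern, were grouped after values had been seen. Of 33 on the array 20 were measured, 16 of them below CON, 3 by at least 2-fold, with a median of -0.31. The lower genes were all of the Hoxb cluster. Hoxb6 measured 177 in CON, 16.0 in DSS and 19.7 in DSSPAR, at least 7.07-fold lower. Hoxb3 measured 187, 66.5 and 46.4, a log2 ratio of -1.49. Hoxb5 measured 71.8, 27.1 and 20.3, a log2 ratio of -1.41. The posterior genes of the paralogue group 13 were within 2-fold: Hoxb13 measured 1206, 1440 and 1595, a log2 ratio of 0.26, and Hoxd13 measured 538, 580 and 592, a log2 ratio of 0.11 with probe sets on both sides. Both colitis arrays lay on the same side of CON for each of the Hoxb genes named.

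**Figure D4:**
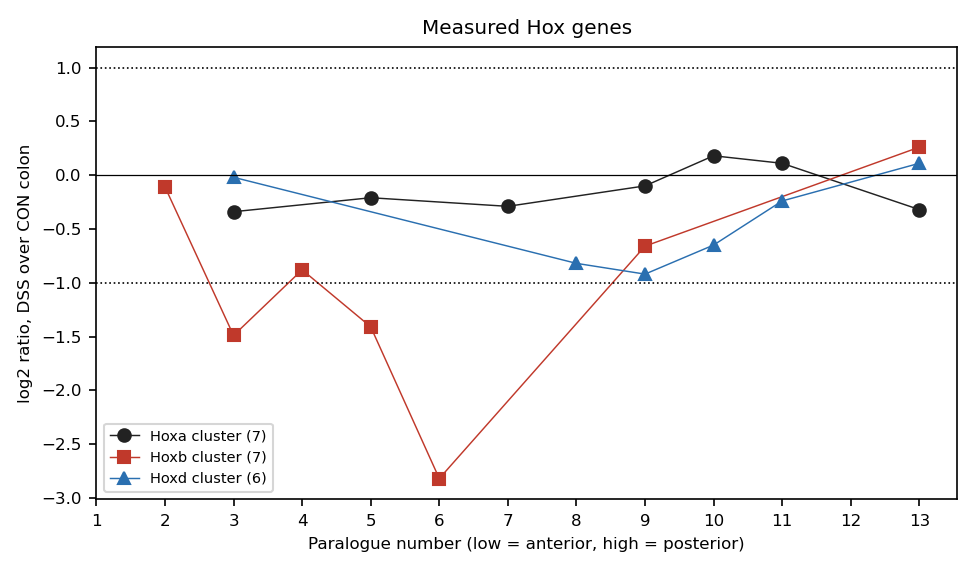
Log2 ratio of DSS to CON colon intensity for the 20 measured Hox genes, by paralogue number (horizontal, anterior to posterior) and cluster (black Hoxa, red Hoxb, blue Hoxd), with 1 pooled array per group and dotted lines at 2-fold. Hoxb3, Hoxb5 and Hoxb6 lie below the lower line, at -1.49, -1.41 and -2.82, and the paralogues numbered 13 lie between -0.32 for Hoxa13 and 0.26 for Hoxb13.

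Genes of the unfolded protein response had 3 of 21 members higher and none lower, with a median of 0.30, and Hspa5, the main chaperone of the endoplasmic reticulum, measured 2278 in CON, 4001 in DSS and 3698 in DSSPAR. AP-1 and immediate early genes had a median of 0.04, and Ier3 alone was past 2-fold, at 132, 363 and 222.

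**Figure D5:**
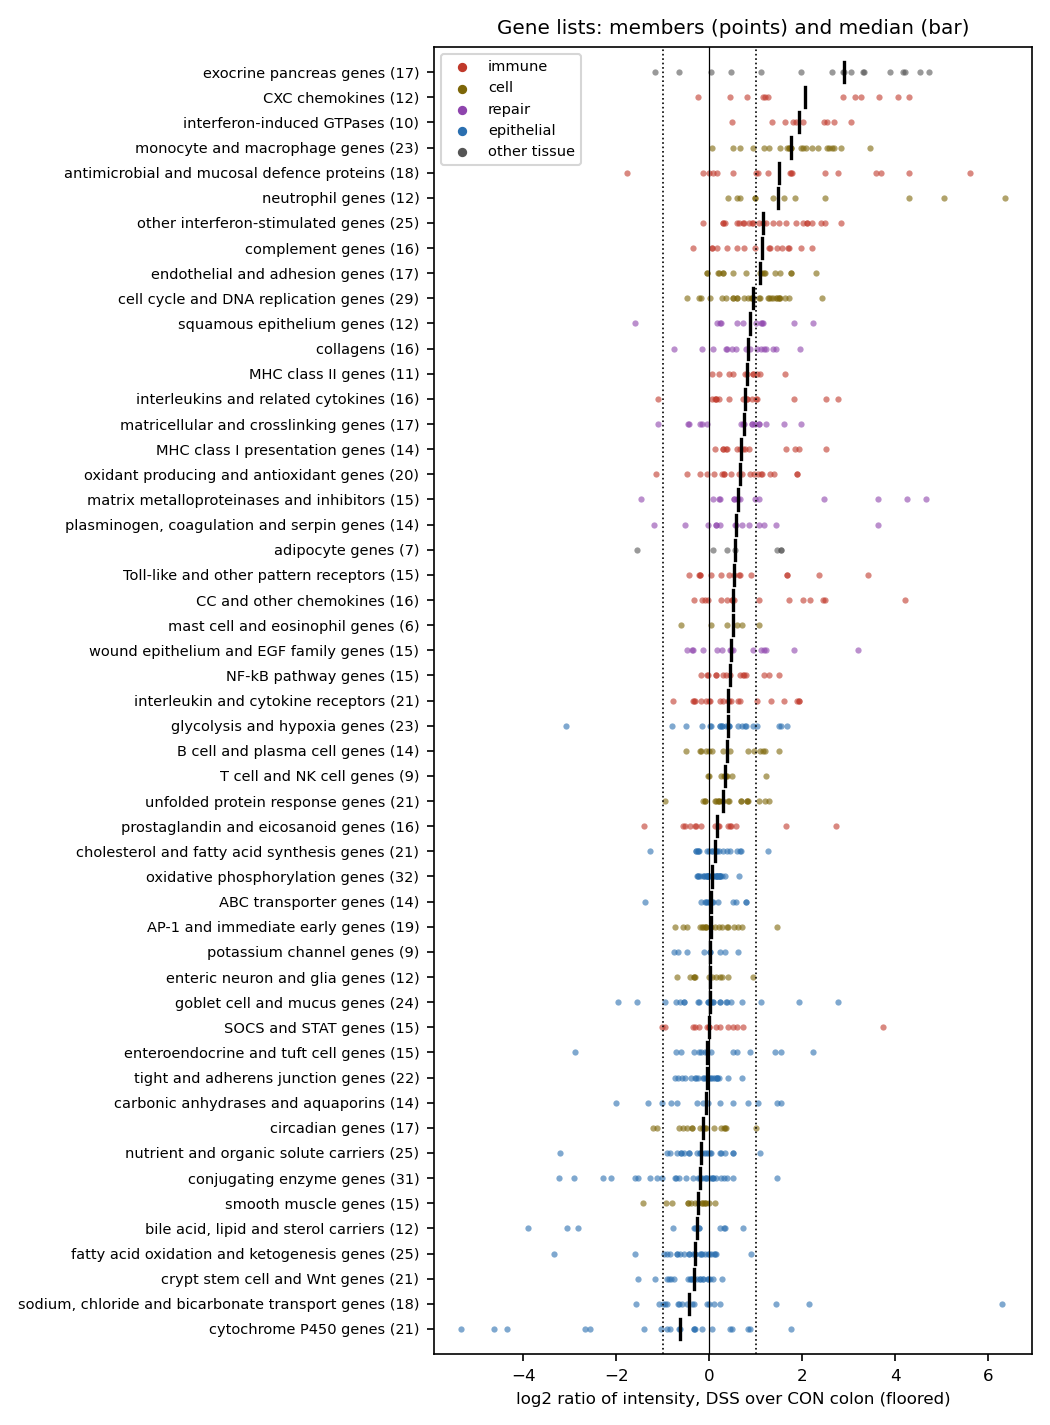
Each row is a gene list with its number of measured genes in brackets; points are the log2 ratios of DSS to CON colon of the members, coloured by the kind of list, the black bar is the median, and dotted lines mark 2-fold. Medians run from 2.89 for exocrine pancreas genes and 2.07 for CXC chemokines down to -0.63 for cytochrome P450 genes, with the median of all measured genes at 0.04.

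The exocrine pancreas genes had 13 of 17 measured members at least 2-fold higher in DSS, 1 lower and a median of 2.89. Prss2, a trypsinogen, measured 12 in CON, 581 in DSS and 14.2 in DSSPAR, at least 23.2-fold higher. Ctrb1, a chymotrypsinogen, measured 1.55, 468 and 7.03, at least 18.7-fold higher. Cela2a, a pancreatic elastase, measured 5.45, 450 and 0.467, at least 17.9-fold higher. These 3 genes were above the floor in the DSS array only. Other members were above it in all 3 arrays: Cela3b, another elastase, measured 27.7, 171 and 28.2, and Clps, a lipase cofactor, measured 150, 207 and 143. Raising the floor to the 75th percentile gave a list median of 0.99, and removing it gave 4.39. Reg2, a lectin-like protein abundant in the exocrine pancreas, was above the floor in DSS only, at 19.8, 661 and 12.2, as was Reg3a at 5.24, 84.4 and 1.55. Sycn, which colon expresses, was the lower member at 5391, 2412 and 3937. With this list left out, 606 genes were higher and 235 lower. Adipocyte genes had 3 of 7 members higher and 1 lower. Among the higher was Adipoq, the fat cell hormone adiponectin, at 28.3, 82.5 and 31.6. The lower member was Pck1, at 358, 121 and 179, a log2 ratio of -1.56, and Plin4 was level at 0.07. The adipocyte markers summed to 307 in CON, 806 in DSS and 557 in DSSPAR, most of it Fabp4, a fatty acid-binding protein, at 259, 705 and 514. Fabp4 was also 1 of the 3 higher members, but its log2 ratio of 1.45 was 0.68 as the mean over its probe sets and -0.00 without shared probe sets. The part of pancreatic or fat tissue in the other results was not tested.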

How the data were processed

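Colon RNA pooled from 7 mice per group was hybridised to 1 array per group. The authors deposited linear probe set intensities, which were made with MAS5, per the submitters' processing notes. The program version and scaling target were not given in the sources used here, and detection calls were not used. Of 45101 probe sets, 34958 had 1 gene symbol in the platform annotation, 932 had several and 9211 were not listed. Where a gene had several probe sets, the one with the highest mean log2 intensity over the 3 colon arrays stood for it. Intensities were raised to the median of those arrays (25.1), and the log2 ratio of DSS to CON was called at 2-fold. With 1 array per group no test was run, and the number of arrays limits the precision.

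Genes were named by rank (15 in each direction, with the brighter array at or above 42.7, the 60th percentile), as list members with large ratios (up to 6 a list), or as members that define a list, with some further members added after values were seen. A ranked gene also had to have no probe sets above the floor on opposite sides of CON. All members, the 52 lists and the 12 families were chosen with earlier results of these data known. The procedure was run on simulated arrays in which only genes more than 2-fold above the floor were changed, each by well over 2-fold. Recovery of dim genes or of changes near 2-fold was not tested. Python 3.11.15, NumPy 2.4.6, pandas 2.3.3 and matplotlib 3.10.9 were used. Alternatives were other floors, scalings, probe set rules and fold limits, and leaving out pancreatic genes.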

Additional observations from a re-analysis of the deposited data

Results flagged for a closer look

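The 5 genes below, each held by a colon list, differed from CON in the opposite direction in the liver arrays of the same groups by at least 2-fold, with 1 array per group and the difference between tissues not tested. Cxcl9, the CXCR3 ligand, had a log2 ratio of -1.61 in liver, from 2036 in CON to 667 in DSS, against 4.30 in colon. Slc10a2, the bile acid importer, had 1.39 in liver, from 150 to 393, against -3.07 in colon. Cyp7b1, the oxysterol hydroxylase, had -1.62 in liver, where it is bright, from 27384 to 8927, against 1.75 in colon. Slc4a4, the sodium-bicarbonate cotransporter, had 1.31 in liver, from 1135 to 2816, against -1.58 in colon. Cd22, an inhibitory receptor of B cells, had -1.40 in liver, from 255 to 95.9, the last at or under the liver floor of 96.6, against 1.09 in colon. The colon ratios of Cxcl9, Slc10a2 and Cyp7b1 are bounds, with 1 array under the floor. Liver intensities were scaled apart from colon, so levels are not comparable between the tissues.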

How the results depend on the processing

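No paired analysis was possible because each group had 1 array, and no array could be left out. The count of genes at least 2-fold higher and lower, 619 and 236, was 274 and 102 of 7439 once the floor was raised to the 75th percentile, and 1850 and 1719 of 18194 with no floor, where dim genes with unbounded ratios enter. It was 210 and 62 at 3-fold, and 116 and 35 at 4-fold. With arrays centred on their medians it was 704 and 191, which raised the median of all measured genes from 0.04 to 0.12, and the higher side held 78.7% of calls against 72.4%. Without the floor the higher side held 51.8%. Quantile normalization, the mean over probe sets, leaving out shared probe sets and leaving out pancreatic genes gave 503 to 621 higher and 211 to 258 lower. Of 243 named genes past 2-fold, 239 stayed past it when centred, 236 after quantile normalization and 223 with the mean over probe sets. With the higher floor 152 of 204 did; among the 52 that did not were Il6 (0.46), Cxcl2 (0.82), Ccl2 (0.44), Ccl20 (0.39), Cd68 (0.53), Timp1 (0.41), Muc1 (0.04), Hoxb6 (-0.77), Alpi (-0.09), Cyp11a1 (-0.52), Nts (-0.84), Naaladl1 (-0.88) and Ces1g (-0.86), since a higher floor shortens each ratio that reaches it. Without shared probe sets 2 genes turned, Fabp4 to -0.00 and Trim12a to -0.73, and Car8 was -0.72; the cause was not tested. Among list medians that moved under the higher floor were those of squamous epithelium genes, from 0.87 to 0.10 over 4 members, and adipocyte genes, from 0.55 to 1.00 over 4. Intensities near the floor are the least precise.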

Other observations

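Further gene groups gave values that the comparison above did not describe. Of 17 circadian genes 2 were at least 2-fold lower and 1 was higher. Dbp, an output transcription factor of the clock, measured 1117 in CON, 481 in DSS and 727 in DSSPAR, a log2 ratio of -1.22, and Per3, a clock component, measured 226, 103 and 158, a log2 ratio of -1.13. Nfil3, which opposes Dbp at shared sites, measured 19.8, 50.4 and 20.5, at least 2.01-fold higher. The core clock genes Arntl and Per2 were level, with log2 ratios of 0.10 and -0.07. The time of day of tissue collection is not given in the sources used here.

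Among 34 nuclear receptors, grouped after values had been seen, 26 lay below CON, and Ppara alone was past 2-fold. Vdr, the vitamin D receptor, measured 1039, 584 and 660, a log2 ratio of -0.83, and Nr3c2, the mineralocorticoid receptor, measured 621, 323 and 418, a log2 ratio of -0.94. In the TRIM family of ubiquitin ligases 4 of 41 members were higher and none lower. Trim15 measured 77.3, 422 and 321, a log2 ratio of 2.45, and Trim40 measured 85.0, 423 and 476, a log2 ratio of 2.31. Cholesterol and fatty acid synthesis genes had 1 of 21 higher and 1 lower. Fdps, which makes farnesyl diphosphate, measured 326, 787 and 832, a log2 ratio of 1.27, and Acss2, which activates acetate, measured 955, 396 and 829, a log2 ratio of -1.27.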
